A study of Homo sapiens with 12 samples.

Results

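The NDUF genes are the human genes named for NADH:ubiquinone oxidoreductase, complex I of the mitochondrial respiratory chain. They were taken here as every protein-coding gene of the deposited count table whose symbol starts with NDUF, which gave 48 of 62702 genes. The table holds 115 genes with NDUF symbols, and the 63 pseudogenes and 4 antisense or divergent transcripts among them were left out. Of the 48 genes, 37 encode nuclear subunits of complex I (7 core and 30 accessory subunits), 8 encode assembly factors, 2 form the NDUFA4 pair (NDUFA4 and NDUFA4L2), and 1 is the readthrough gene NDUFC2-KCTD14. RNA came from 786-O, a human line of clear cell renal cell carcinoma without functional VHL, and was read by BRB-seq, which counts the 3′ ends of barcoded polyadenylated RNA. The 4 groups of 3 libraries were parental cells (parental) and 3 lines derived from them that carry inducible shRNAs. The first line targets HIF2A, which EPAS1 encodes (shHIF2A), the next targets the AP-1 genes JUN, JUNB and JUND together (shJUNs), and the last targets YAP and TAZ, encoded by YAP1 and WWTR1 (shYAPTAZ). All 4 groups, parental cells included, received doxycycline for 72 hours, and a control shRNA line was not analysed here. The labels call the replicates technical, so p-values measure only the spread between these libraries, and each knockdown is represented by 1 line.

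Complex I takes electrons from NADH, passes them along a chain of iron-sulfur clusters in its matrix arm to ubiquinone, and pumps protons through its membrane arm. The core subunits carry out the chemistry, the accessory subunits surround and stabilise them, and assembly factors join the modules but are absent from the finished enzyme. The membrane core is encoded by the mitochondrial genome, so the enzyme draws on both genomes. Clear cell renal carcinoma is known for the loss of VHL, for the HIF activity that follows, and for low respiration relative to kidney tubule. NDUFA4 was first named as a complex I subunit and is now regarded as a subunit of complex IV. NDUFA4L2, its paralog, is a HIF target whose protein lowers complex I activity in hypoxia.

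The 250 bases before the transcription start of 5 genes show the sequences next to which the values below can be read. They were taken from RefSeq on GRCh38.p14, and capitals mark the hypoxia response cores ACGTG and GCGTG, the palindromic site of the transcription factor NRF1 and the CCAAT box, each on either strand. NDUFA4L2, the HIF target (chr12:57240763-57241012, minus strand), and NDUFA4, the gene of the pair that was higher in shHIF2A (chr7:10940154-10940403, minus strand), are shown first. NDUFA3 (chr19:54102605-54102854, plus strand), NDUFB2 (chr7:140696458-140696707, plus strand) and NDUFAF8 (chr17:81239061-81239310, plus strand) follow, as genes that differed between groups, chosen after their values were seen.
NDUFA4L2: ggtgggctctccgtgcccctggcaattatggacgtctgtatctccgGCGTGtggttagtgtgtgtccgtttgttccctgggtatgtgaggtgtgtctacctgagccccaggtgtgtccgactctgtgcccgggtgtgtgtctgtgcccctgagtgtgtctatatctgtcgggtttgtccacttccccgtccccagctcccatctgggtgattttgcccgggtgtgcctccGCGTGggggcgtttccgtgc
NDUFA4: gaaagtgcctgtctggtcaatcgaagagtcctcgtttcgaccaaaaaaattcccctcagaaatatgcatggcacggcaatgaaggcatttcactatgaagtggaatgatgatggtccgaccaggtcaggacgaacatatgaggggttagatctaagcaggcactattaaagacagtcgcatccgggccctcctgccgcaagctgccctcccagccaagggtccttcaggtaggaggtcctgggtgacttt
NDUFA3: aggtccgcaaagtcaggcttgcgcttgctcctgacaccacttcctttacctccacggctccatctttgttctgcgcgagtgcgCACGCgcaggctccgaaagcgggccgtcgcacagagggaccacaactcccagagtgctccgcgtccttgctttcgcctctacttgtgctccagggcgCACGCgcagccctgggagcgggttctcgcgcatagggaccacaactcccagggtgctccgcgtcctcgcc
NDUFB2: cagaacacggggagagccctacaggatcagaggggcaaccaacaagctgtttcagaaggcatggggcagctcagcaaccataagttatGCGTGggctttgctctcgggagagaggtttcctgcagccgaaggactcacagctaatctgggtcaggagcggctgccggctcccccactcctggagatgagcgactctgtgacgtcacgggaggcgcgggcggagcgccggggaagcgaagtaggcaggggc
NDUFAF8: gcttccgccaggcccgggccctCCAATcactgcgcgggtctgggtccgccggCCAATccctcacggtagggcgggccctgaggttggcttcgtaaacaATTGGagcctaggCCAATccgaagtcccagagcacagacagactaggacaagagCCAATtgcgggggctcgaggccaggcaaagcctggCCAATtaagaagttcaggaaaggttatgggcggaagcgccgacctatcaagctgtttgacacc
NDUFA4L2 had 2 GCGTG matches, which began 204 and 20 bases before the start. NDUFA3 had 2 as well, at 167 and 70 bases, NDUFB2 had 1 at 162 bases, and NDUFA4 had none. NDUFAF8 had no hypoxia core and 6 CCAAT matches, from 228 to 63 bases before the start. Over the 42 genes with a RefSeq promoter, 25 windows (59.5%) held at least 1 hypoxia core, against 43.1% of the 27305 windows of all genes. A hypoxia core was present in 11 of the 20 genes called higher in at least 1 knockdown and in 11 of the 19 tested genes that were not. The CCAAT box was found in 23.8% of the NDUF windows and 33.0% of all windows, the NRF1 site in 2.38% and 1.13%, the AP-1 site TGANTCA in 4.76% and 6.60%, the TEAD site GGAATG in 7.14% and 11.9%, and the ETS core GGAAG in 76.2% and 65.1%. These are matches of letters and no binding was measured.

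The libraries held 2272459 to 4469956 counts, so 3 counts in 1 library equal 0.67 to 1.32 CPM, counts scaled to library size. The NDUF genes took 0.439% to 0.663% of the counts, and transcripts of the mitochondrial genome took 6.33% to 9.37%. Each knockdown had lower mRNA of its own targets than parental cells, with JUNB the one whose libraries overlapped. Genes targeted in another line also differed from parental cells. EPAS1 was lower in shJUNs (log2 change -2.45) and in shYAPTAZ (-0.85), JUN in shHIF2A (-0.93), and JUND in shHIF2A and shYAPTAZ (-0.69 and -1.06), while WWTR1 was higher in shHIF2A and shJUNs (0.70 and 0.50). All of these were called. All 9 markers of renal epithelium and of this tumour type passed the filter on low counts. Their summed CPM was 10460 to 10800 in shHIF2A, below the 14080 to 17480 of parental cells. VIM made up most of this sum, with a parental mean of 14956 and a shHIF2A mean of 9454. The 9 genes did not fall together. Against parental cells, 3 were called higher in shHIF2A (33.3%, against 9.84% of all genes tested) and 2 lower (22.2%, against 8.8%). Their median log2 change was 0.16. Markers of blood (CD3E, LYZ) and endothelium (PECAM1, CDH5, TEK) were at 0. Of 4 neural markers, 1 passed the filter, SNAP25, which reached 36.3 CPM in shYAPTAZ and at most 1.12 CPM in parental cells. The neural markers SYP and STMN2 were at 0 in every shYAPTAZ library, and ELAVL3 reached 0.32 CPM there. The 4 fibroblast markers, COL1A1 among them, summed to 29.5 to 33.6 CPM in parental cells, 53.3 to 69.3 CPM in shHIF2A, 26.2 to 31.8 CPM in shJUNs and 36.6 to 41.3 CPM in shYAPTAZ. By this sum the shHIF2A and shYAPTAZ libraries lay above the parental ones. The members did not move together in shYAPTAZ. COL1A1 averaged 6.26 CPM in parental cells and 20.9 CPM in shYAPTAZ, LUM 6.96 and 0.42 CPM, and COL1A2 18.1 and 18.0 CPM. The part of these marker differences in the NDUF results was not tested.

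Of the 48 genes, 45 passed the filter and were tested with 12301 genes in all. NDUFV2, NDUFA7 and NDUFC2-KCTD14 did not pass. Levels below are CPM after TMM scaling, and a gene is called at an adjusted p under 0.05 in edgeR's quasi-likelihood test. In bulk RNA, fewer cells that express a gene and less RNA per cell cannot be told apart. Levels are not compared between genes, because 3′ end counts differ with the sequence at each end.

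Nearly every NDUF call against parental cells was a rise, and 21 of the 45 genes were called in none of the 3 knockdowns. In shHIF2A 14 of 45 were called higher (31.1%, against 9.84% of all genes tested) and 0 were called lower (8.8% of all genes). In shJUNs 11 were called higher (24.4%, against 10.3%) and 1 lower (2.22%, against 8.93%). In shYAPTAZ 10 were called higher (22.2%, against 13%) and 0 lower (12.3% of all genes). In both lines with 0 lower calls in edgeR, DESeq2 and limma-voom also gave 0, and 0 genes were lower at an unadjusted p under 0.05 in any of these tools. The median log2 change of the 45 genes was 0.34 in shHIF2A, 0.29 in shJUNs and 0.20 in shYAPTAZ, where that of all genes tested was 0.01, -0.00 and 0.02. All 3 libraries lay above all 3 parental libraries for 21 genes in shHIF2A (18.8% of all genes did so), 17 in shJUNs (20.5%) and 16 in shYAPTAZ (18.1%).

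Parental replicate 1 stood low for these genes. It was the lowest of the 12 libraries for 20 of 45 genes and the lowest parental library for 28 (62.2%), against 37.9% of all genes tested. Without it, 7 genes were called higher in shHIF2A (15.2%, against 6.04% of all genes), 6 in shJUNs (13.0%, against 6.82%) and 4 in shYAPTAZ (8.70%, against 10.2%), so that in shYAPTAZ the share fell below that of all genes. The medians without it were 0.25, 0.12 and 0.07, where those of all genes were 0.01, 0.02 and 0.03. Without parental replicate 1, 1 NDUF gene was called lower in shYAPTAZ (9.34% of all genes were). In shHIF2A and shJUNs 0 were (5.96% and 5.95% of all genes). The 3 comparisons share the parental libraries, and so they share this one.

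NDUFB2, NDUFB3 and NDUFS5 were called higher in all 3 knockdowns, as were 391 of the 12301 genes tested. A further 6 genes were called higher in 2 knockdowns and 14 in 1. The shares of all genes for these counts, and for the genes called in none, are not given here. The summed CPM of the 37 nuclear subunits was 3732, 4436 and 4658 in parental replicates 1 to 3. The shHIF2A libraries summed to 5592, 5532 and 5509, the shJUNs libraries to 5058, 5212 and 5217, and the shYAPTAZ libraries to 5006, 4957 and 5140. All 9 knockdown libraries lay above the 3 parental ones, the shHIF2A libraries lay highest, and shJUNs and shYAPTAZ overlapped.

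**Figure D1:**
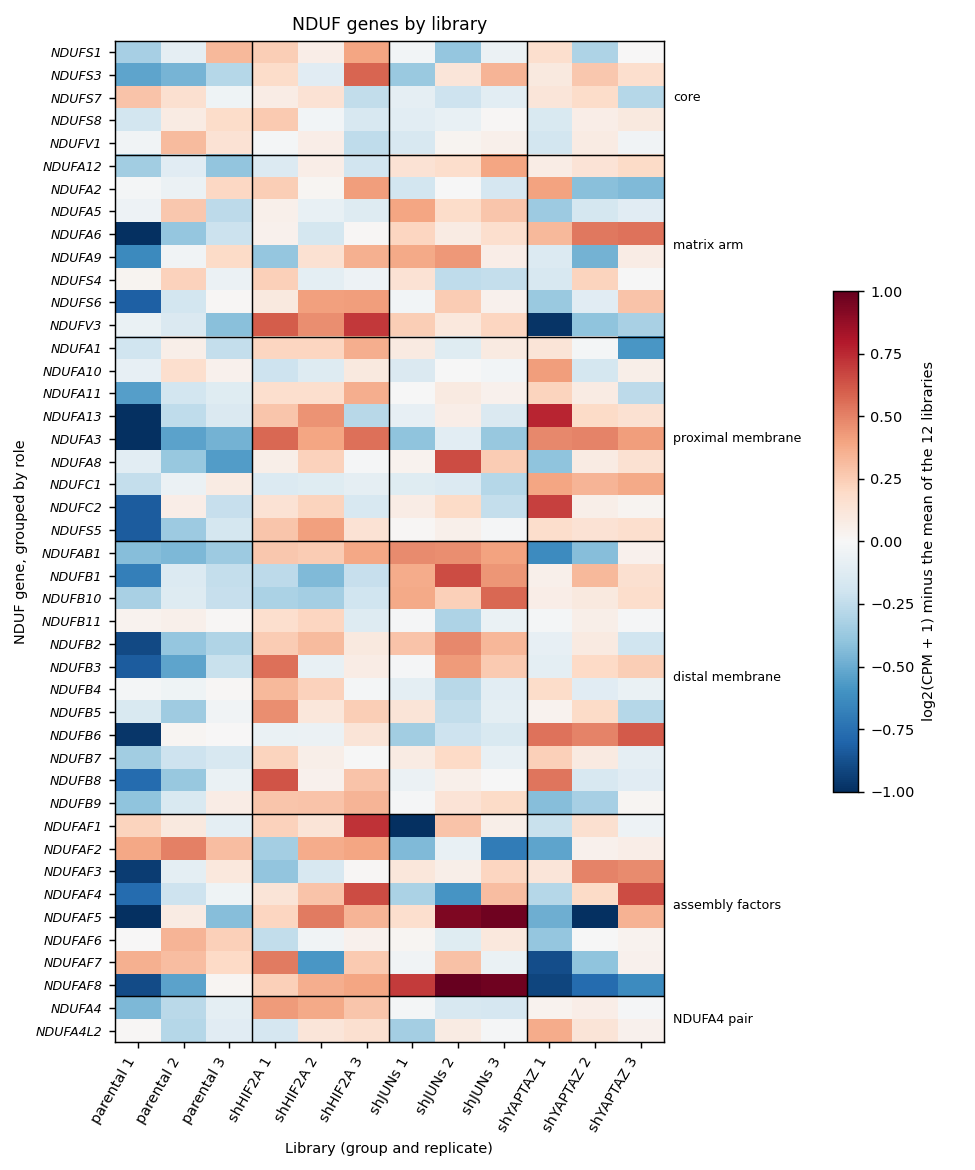
Heat map of 44 of the 45 tested NDUF genes (vertical axis, grouped by role) in the 12 libraries (horizontal axis). Colour is log2(CPM + 1) minus the gene's mean over the 12 libraries, and the column of parental replicate 1 holds the lowest value of 20 genes.

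NDUFA4L2, reported apart as the HIF target, stood at 19.5, 15.7 and 17.8 CPM in parental replicates 1 to 3. It stood at 17.1, 21.2 and 21.7 CPM in shHIF2A, at 15.1, 20.6 and 19.2 CPM in shJUNs, and at 25.4, 21.3 and 20.001 CPM in shYAPTAZ. The shHIF2A and shJUNs libraries overlapped the parental ones, and the shYAPTAZ libraries lay just above them. No comparison was called: the log2 change was 0.18 in shHIF2A (95% interval -0.41 to 0.77, edgeR adjusted p = 0.720), 0.05 in shJUNs (-0.54 to 0.63, adjusted p = 0.936) and 0.33 in shYAPTAZ (-0.26 to 0.91, adjusted p = 0.442). The interval for shHIF2A excludes a fall below -0.41 on the log2 scale but not a smaller fall or a rise. In the same libraries EPAS1, the mRNA of HIF2A, ranged from 148 to 267 CPM in parental cells, from 11.9 to 18.6 CPM in shHIF2A, from 36.2 to 38.5 CPM in shJUNs and from 58.6 to 172 CPM in shYAPTAZ. It was called lower in all 3 knockdowns, though the shYAPTAZ libraries overlapped the parental ones. HIF1A mRNA ranged from 4.78 to 8.76 CPM in parental cells, from 9.11 to 14.3 CPM in shHIF2A, from 6.21 to 8.01 CPM in shJUNs and from 114 to 150 CPM in shYAPTAZ. It was called higher in shHIF2A (log2 change 0.89, adjusted p = 0.0405) and shYAPTAZ (4.46).

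NDUFA4, the paralog, was called higher in shHIF2A. It was at 389.5, 441 and 496 CPM in parental cells and at 714, 692 and 647 CPM in shHIF2A, with no overlap. The log2 change was 0.63 (SE 0.12, edgeR adjusted p = 0.00069), and the call held in all 20 alternative analyses. In shJUNs NDUFA4 was at 525, 476 and 474 CPM, which overlapped parental cells (log2 change 0.15, adjusted p = 0.407). In shYAPTAZ it was at 547, 557 and 528 CPM, above every parental library but not called (log2 change 0.30, adjusted p = 0.068). NDUFA4 was lower in shJUNs than in shHIF2A by 0.48 on the log2 scale (adjusted p = 0.0135), a call lost when any of 4 single libraries was left out (adjusted p up to 0.0859).

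**Figure D2:**
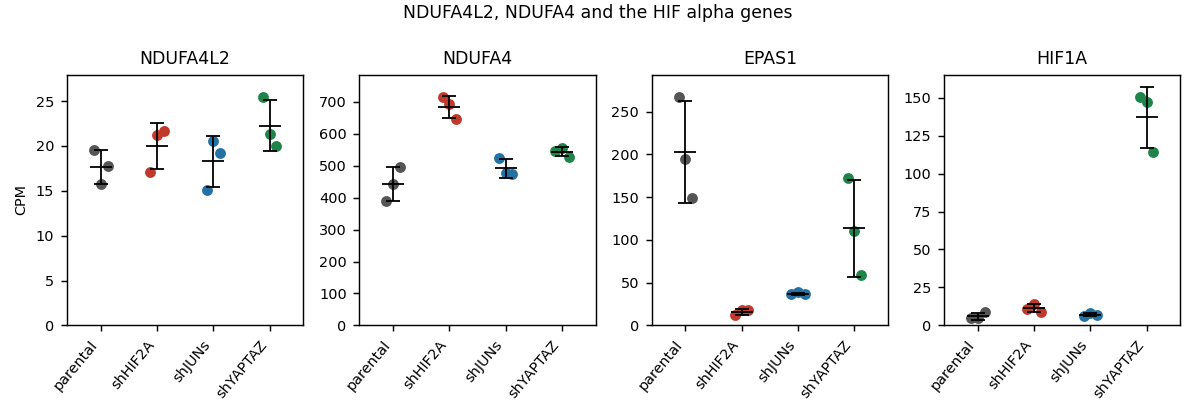
Levels (CPM, linear axes from 0) of NDUFA4L2, NDUFA4, EPAS1 and HIF1A in the 4 groups; points are libraries and bars are the mean ± SD of 3. NDUFA4 lies between 647 and 714 CPM in shHIF2A, above every parental library, while NDUFA4L2 overlaps between these groups.

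Among the core subunits, NDUFS3 was called higher in shHIF2A and in shYAPTAZ, and 0 of 6 tested were called in shJUNs (19.3% of all genes tested). In shJUNs, edgeR, DESeq2 and limma-voom each called 0, and 1 (NDUFS3) had an unadjusted p under 0.05 in each. NDUFS3, a subunit of the matrix arm, was at 46.1, 48.4 and 54.8 CPM in the parental libraries, 76.2, 61.8 and 101 CPM in shHIF2A, and 71.7, 80.9 and 75.2 CPM in shYAPTAZ. Neither knockdown overlapped parental cells (log2 changes 0.68 and 0.61, adjusted p = 0.0293 and 0.0385). The NDUFS3 call was lost in 4 of 20 alternatives in shHIF2A and in 6 in shYAPTAZ. Both were lost without parental replicate 1 (adjusted p = 0.0977 and 0.107).

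NDUFS1, NDUFS7, NDUFS8 and NDUFV1 were called in no comparison. NDUFS1, which holds iron-sulfur clusters near the NADH end, ranged from 69.8 to 111 CPM in parental cells and from 67.3 to 116 CPM in the knockdowns. NDUFV1, which binds NADH, had log2 changes of -0.21, -0.18 and -0.19 in shHIF2A, shJUNs and shYAPTAZ (adjusted p = 0.437, 0.529 and 0.473). NDUFS7, which passes electrons to ubiquinone, had log2 changes of -0.14, -0.28 and -0.13, and its iron-sulfur neighbour NDUFS8 had -0.00, -0.09 and -0.03. Their intervals, which lie between -0.73 and 0.36, leave room for modest changes either way. NDUFV2, the iron-sulfur partner of NDUFV1, gave 0 to 6 counts per library and 16 in all, too few to test. Of the last 500 exonic bases of NDUFV2, 71.4% are shared on the same strand with another annotated gene (ENSG00000265257), which had 0 counts, and the sources used here do not say how shared reads were counted.

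Of the accessory subunits of the matrix arm, 8 of 9 were tested, and 2 (25%) were called higher in each knockdown. The shares of all genes tested were 9.84% in shHIF2A, 10.3% in shJUNs and 13% in shYAPTAZ. The called genes were NDUFS6 and NDUFV3 in shHIF2A, and NDUFA6 and NDUFA12 in both shJUNs and shYAPTAZ. NDUFS6 is a zinc-binding subunit and NDUFV3 a subunit of the NADH-binding module. NDUFV3 was at 35.9, 34.0 and 28.0 CPM in the parental libraries, 58.0, 52.4 and 62.4 CPM in shHIF2A, 45.0, 40.6 and 44.0 CPM in shJUNs, and 18.6, 28.3 and 29.9 CPM in shYAPTAZ. The shHIF2A libraries lay highest and did not overlap any other group, while shYAPTAZ overlapped parental cells. The log2 change in shHIF2A was 0.82 (SE 0.22, edgeR adjusted p = 0.0125), and 0.055 was the adjusted p without parental replicate 3. NDUFV3 was lower in shYAPTAZ than in shHIF2A by 1.15 on the log2 scale (log2 change -1.15, adjusted p = 0.00096) and lower than in shJUNs (log2 change -0.74, adjusted p = 0.0270), the latter a call lost in 5 of 20 alternatives.

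NDUFA6, which docks the acyl carrier protein on the matrix arm, was at 24.1, 41.0 and 46.4 CPM in parental cells. It was at 62.8, 57.4 and 61.0 CPM in shJUNs and at 68.1, 78.3 and 79.0 CPM in shYAPTAZ. All 6 libraries lay above the parental ones, and the log2 changes were 0.69 and 1.01 (adjusted p = 0.0256 and 0.00136). The shYAPTAZ call held in all 20 alternatives. The shJUNs call was lost in 4, without parental replicate 1 (adjusted p = 0.138) or any single shJUNs library. The median log2 change of all tested genes on its chromosome, 22, was 0.31 in shJUNs and 0.27 in shYAPTAZ.

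NDUFA12, which replaces the assembly factor NDUFAF2 late in assembly, was at 117, 137 and 113 CPM in parental cells. It was at 164, 168 and 196 CPM in shJUNs and at 157, 164 and 171 CPM in shYAPTAZ, above parental cells in both (log2 changes 0.53 and 0.42, adjusted p = 0.0157 and 0.0419). The shYAPTAZ call was lost in 11 of 20 alternatives, and the shJUNs call in 2, without parental replicate 3 or shJUNs replicate 3 (adjusted p = 0.0616 and 0.101). Genes of chromosome 12 had a median of 0.29 in shJUNs. NDUFS6 was at 111, 172 and 198 CPM in parental cells and at 209.9, 261 and 263 CPM in shHIF2A (log2 change 0.61, adjusted p = 0.0311). The NDUFS6 call was lost in 4 of 20 alternatives, among them without parental replicate 1 (adjusted p = 0.165). NDUFA7 gave 0 to 18 counts per library and was not tested.

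In the proximal membrane arm all 9 accessory subunits were tested. Called higher were 3 in shHIF2A (33.3%, against 9.84% of all genes tested), 2 in shJUNs (22.2%, against 10.3%) and 3 in shYAPTAZ (33.3%, against 13%). NDUFA3, a small membrane subunit, had the largest log2 changes of these 9 in shHIF2A and shYAPTAZ. NDUFA3 was at 30.7, 43.6 and 45.5 CPM in parental cells and at 95.1, 83.9 and 93.5 CPM in shHIF2A. It was at 47.7, 59.0 and 48.7 CPM in shJUNs and at 89.0, 89.8 and 85.1 CPM in shYAPTAZ. The shHIF2A and shYAPTAZ libraries overlapped each other, and both lay above shJUNs, whose libraries lay above the parental ones by little. The log2 changes were 1.18 in shHIF2A (SE 0.19, adjusted p = 0.00015) and 1.13 in shYAPTAZ (SE 0.19, adjusted p = 0.00013), and both calls held in all 20 alternatives. NDUFA3 was lower in shJUNs than in shHIF2A (log2 change -0.81, adjusted p = 0.0079) and higher in shYAPTAZ than in shJUNs (log2 change 0.76, adjusted p = 0.0065). The 158 tested genes within 5 Mb of NDUFA3 had a median log2 change of 0.09 in shHIF2A and 0.48 in shYAPTAZ.

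NDUFS5, an intermembrane space subunit with paired cysteine motifs, was called in all 3 knockdowns. It was at 225, 311 and 354 CPM in parental cells and at 485, 534 and 443 CPM in shHIF2A. It was at 405, 415 and 397 CPM in shJUNs and at 453, 442 and 451 CPM in shYAPTAZ. All 9 libraries lay above the 3 parental ones, with log2 changes of 0.71, 0.45 and 0.60 (adjusted p = 0.00118, 0.0282 and 0.00345). The shJUNs call was lost in 5 of 20 alternatives, with an adjusted p of 0.137 without parental replicate 1.

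NDUFC1, a small subunit at the joint of the membrane arm, was called in shYAPTAZ alone against parental cells. It was at 185, 210.0 and 232 CPM in parental cells and at 287, 276 and 285 CPM in shYAPTAZ, with no overlap (log2 change 0.44, adjusted p = 0.0192). This call was lost in 4 of 20 alternatives, among them without parental replicate 1 (adjusted p = 0.0736) or 2 (0.0581). It was also higher in shYAPTAZ than in shHIF2A (log2 change 0.49, adjusted p = 0.0123) and shJUNs (log2 change 0.55, adjusted p = 0.00595), and these 2 calls held in all alternatives. Of the last 500 exonic bases of NDUFC1, 72% are shared on the same strand with MGARP. MGARP averaged 2.89 CPM in parental cells, 0.19 CPM in shHIF2A, 0.58 CPM in shJUNs and 3.31 CPM in shYAPTAZ. The part of this overlap in the NDUFC1 counts was not tested. The 21 tested genes within 5 Mb of NDUFC1 had a median log2 change of 0.25 in shYAPTAZ. NDUFA8, another subunit with paired cysteines, was called in shJUNs (log2 change 0.68, adjusted p = 0.0193), and NDUFA11, which sits where complex I meets complex III, in shHIF2A (log2 change 0.51, adjusted p = 0.0302). NDUFA11 lost its call in 5 of 20 alternatives and NDUFA8 in 3. NDUFA13, also known as GRIM-19, ranged from 5.93 to 22.7 CPM over the 12 libraries and was not called.

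**Figure D3:**
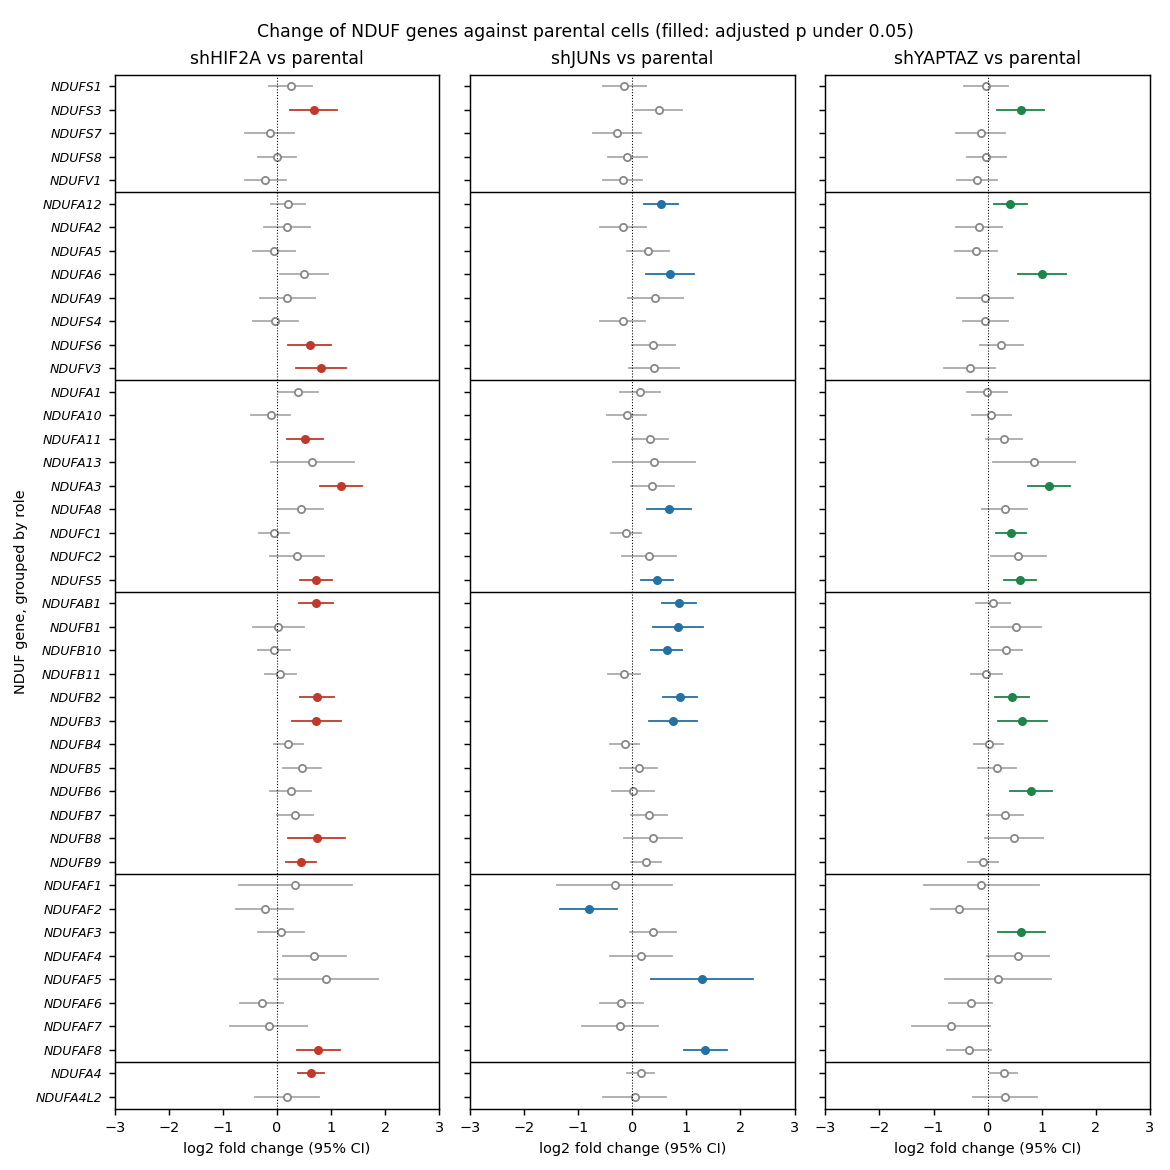
Log2 fold change against parental cells (horizontal axes, points with 95% intervals) of 44 of the 45 tested NDUF genes (vertical axis, grouped by role) in shHIF2A, shJUNs and shYAPTAZ. Filled points are the 13, 12 and 10 drawn genes called, of which NDUFAF2 in shJUNs is the one called lower.

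The distal membrane arm with the acyl carrier protein held 12 tested genes. Called higher were 5 in shHIF2A (41.7%, against 9.84% of all genes tested), 5 in shJUNs (41.7%, against 10.3%) and 3 in shYAPTAZ (25%, against 13%). NDUFB2, a small subunit of this arm, was at 148, 212 and 225 CPM in parental cells. It was at 331, 346 and 297 CPM in shHIF2A, 337, 386 and 349 CPM in shJUNs, and 261, 295 and 240.5 CPM in shYAPTAZ. No knockdown library fell into the parental range. The log2 changes were 0.73, 0.87 and 0.45 (adjusted p = 0.0017, 0.0003 and 0.0346). The shYAPTAZ call was lost in 5 of 20 alternatives, among them without parental replicate 1 (adjusted p = 0.168). The last 500 exonic bases of NDUFB2 overlap genes of the opposite strand throughout (BRAF and NDUFB2-AS1). BRAF averaged 21.1 CPM in parental cells and 12.4 to 24.2 CPM in the knockdowns, and NDUFB2-AS1 averaged 2.77 to 9.93 CPM over the groups, and the part of this overlap in the NDUFB2 counts was not tested.

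NDUFB3, another small subunit of the arm, was at 33.2, 41.3 and 51.2 CPM in parental cells. It was at 88.4, 56.8 and 63.1 CPM in shHIF2A, 59.5, 80.9 and 72.2 CPM in shJUNs, and 55.8, 68.8 and 71.3 CPM in shYAPTAZ. Every knockdown library exceeded the highest parental one, with log2 changes of 0.73, 0.75 and 0.64 (adjusted p = 0.0228, 0.0169 and 0.0340). All 3 calls were lost without parental replicate 1 (adjusted p = 0.112, 0.0834 and 0.138). In all they were lost in 3, 4 and 5 of 20 alternatives in shHIF2A, shJUNs and shYAPTAZ.

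NDUFAB1, the mitochondrial acyl carrier protein that complex I shares with lipoic acid synthesis and iron-sulfur cluster assembly, was at 166, 163 and 174 CPM in parental cells. It was at 269.9, 267 and 292 CPM in shHIF2A and at 311, 309 and 295 CPM in shJUNs, but at 144, 166 and 229.9 CPM in shYAPTAZ. The first 2 knockdowns lay above every other library, and shYAPTAZ overlapped parental cells. The log2 changes were 0.72 in shHIF2A (adjusted p = 0.0021), 0.86 in shJUNs (adjusted p = 0.00034) and 0.11 in shYAPTAZ. NDUFAB1 was lower in shYAPTAZ than in shHIF2A (log2 change -0.61, adjusted p = 0.0065) and shJUNs (log2 change -0.76, adjusted p = 0.0013), and these 4 calls held in all 20 alternatives. Genes of chromosome 16, which holds NDUFAB1 and NDUFB10, had a median log2 change of 0.34 in shJUNs, 0.33 in shYAPTAZ and 0.04 in shHIF2A.

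NDUFB10, an intermembrane-space-facing subunit, was at 149.7, 172 and 160.0 CPM in the parental libraries, 151, 148 and 164 CPM in shHIF2A, 244, 222 and 281 CPM in shJUNs, and 197, 202 and 213 CPM in shYAPTAZ. The shHIF2A libraries overlapped parental cells, and those of the other knockdowns lay above both. It was higher in shJUNs than in parental cells (log2 change 0.63, adjusted p = 0.0026) and than in shHIF2A (log2 change 0.69, adjusted p = 0.0032). NDUFB1, a short single-span subunit, showed a similar order, with 22.0, 32.6 and 30.2 CPM in parental cells and 46.8, 57.1 and 49.2 CPM in shJUNs (log2 change 0.85, adjusted p = 0.0096). This call was lost without parental replicate 1 (adjusted p = 0.0535) and without shJUNs replicate 2 (0.053). NDUFB1 lies on chromosome 14, whose genes had a median log2 change of 0.39 in shJUNs and 0.89 in shYAPTAZ. In shYAPTAZ the NDUFB1 change of 0.53 was below that median and was not called.

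NDUFB6, a membrane subunit, was called higher in shYAPTAZ against all 3 other groups. It was at 118, 236 and 233 CPM in the parental libraries, 222, 223 and 255 CPM in shHIF2A, 183, 201 and 209.0 CPM in shJUNs, and 339.6, 328 and 357 CPM in shYAPTAZ. The shYAPTAZ libraries lay above all 9 others, and parental replicate 1 lay below all 11 others. The log2 change in shYAPTAZ was 0.80 (SE 0.19, adjusted p = 0.0028) against parental cells and 0.79 against shJUNs (adjusted p = 0.0049), and both held in all alternatives. Its call against shHIF2A (adjusted p = 0.0413) was lost in 9 of 20, with adjusted p up to 0.127. The 56 tested genes within 5 Mb of NDUFB6 had a median of 0.41 in shYAPTAZ. NDUFB9, which docks the acyl carrier in the membrane arm, was higher in shHIF2A than in parental cells (log2 change 0.45, adjusted p = 0.0208) and lower in shYAPTAZ than in shHIF2A (log2 change -0.53, adjusted p = 0.0063). The first of these calls was lost in 4 of 20 alternatives, among them without parental replicate 1 (adjusted p = 0.106). NDUFB8 was called in shHIF2A at an adjusted p of 0.0498 (log2 change 0.73), a call lost in 14 of 20 alternatives.

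**Figure D4:**
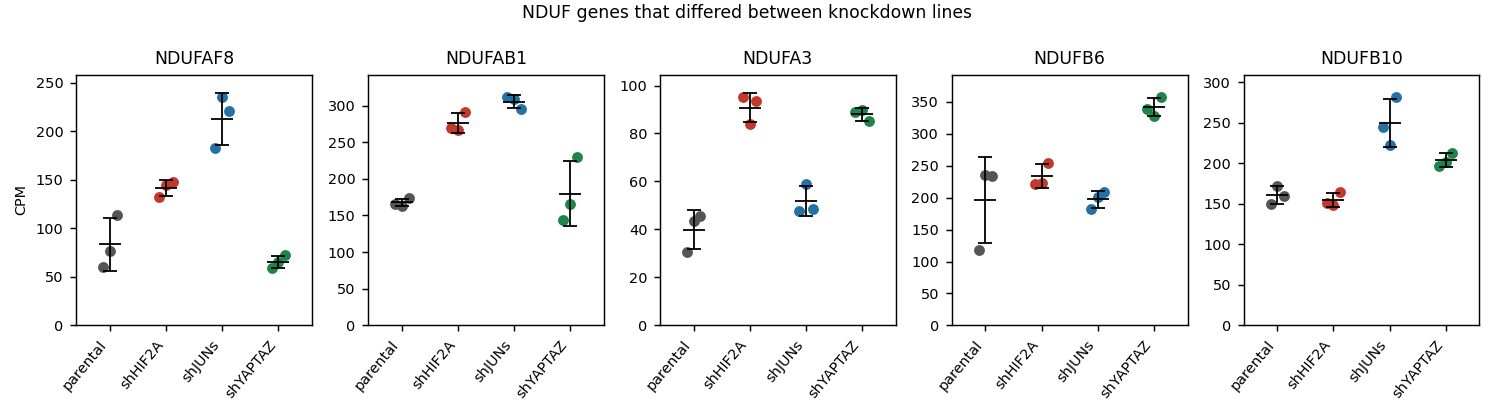
Levels (CPM, linear axes from 0) of NDUFAF8, NDUFAB1, NDUFA3, NDUFB6 and NDUFB10 in the 4 groups; points are libraries and bars are the mean ± SD of 3. NDUFAF8 reaches 182 to 235 CPM in shJUNs and 59.0 to 72.1 CPM in shYAPTAZ.

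The 8 assembly factors were all tested, and 1 was called higher in shHIF2A (12.5%, against 9.84% of all genes tested). In shJUNs 2 were higher (25%, against 10.3%) and 1 lower (12.5%, against 8.93%). In shYAPTAZ 1 was higher (12.5%, against 13%). NDUFAF8, which stabilises NDUFAF5, was called in 2 comparisons with parental cells and in 2 between knockdowns. NDUFAF8 was at 59.7, 77.0 and 114 CPM in the parental libraries, 133, 144 and 148 CPM in shHIF2A, 182, 235 and 221 CPM in shJUNs, and 59.0, 65.3 and 72.1 CPM in shYAPTAZ. The shJUNs libraries lay highest, shHIF2A lay next, and shYAPTAZ overlapped the low end of parental cells. The log2 change was 0.76 in shHIF2A (SE 0.19, adjusted p = 0.0079) and 1.35 in shJUNs (SE 0.19, adjusted p = 3.1e-05). Without parental replicate 1 the shHIF2A comparison had an adjusted p of 0.0526. NDUFAF8 was lower in shYAPTAZ than in shHIF2A (log2 change -1.11, adjusted p = 0.00032) and shJUNs (log2 change -1.70, adjusted p = 2.4e-06), and these 2 calls and that in shJUNs against parental cells held in all 20 alternatives. The 100 tested genes within 5 Mb had a median log2 change against parental cells of 0.39 in shJUNs, 0.02 in shHIF2A and -0.30 in shYAPTAZ.

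NDUFAF5, which modifies NDUFS7 together with NDUFAF8, was at 3.14, 11.2 and 7.63 CPM in parental cells and at 11.98, 21.1 and 21.7 CPM in shJUNs. The log2 change was 1.29 (95% interval 0.35 to 2.24, adjusted p = 0.0498), and the call was lost in 9 of 20 alternatives. NDUFAF2, which NDUFA12 replaces, was the 1 gene called lower: it was at 48.2, 52.3 and 45.5 CPM in parental cells and at 26.6, 34.7 and 22.1 CPM in shJUNs, with no overlap. The log2 change of NDUFAF2 was -0.81 (SE 0.25, adjusted p = 0.0271), and 4 of 12 single-library omissions ended the call. NDUFAF3, an early factor of the ubiquinone module that works with NDUFAF4, was at 57.2, 105 and 120.1 CPM in parental cells and at 122, 158 and 155 CPM in shYAPTAZ. Its log2 change was 0.62 (adjusted p = 0.0307), and 0.37 without parental replicate 1 (adjusted p = 0.162). The NDUFAF3 call was lost in 4 of 20 alternatives. The 123 tested genes within 5 Mb of NDUFAF3 had a median log2 change of 0.35 in shYAPTAZ. NDUFAF1, part of the complex that builds the membrane arm, ranged from 1.78 to 12.3 CPM and was not called.

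Differences between knockdown lines were fewer. In shJUNs against shHIF2A 4 of 45 genes were called (8.89%, against 7.53% of all genes tested): NDUFB1 and NDUFB10 were higher (4.44%, against 4.36%) and NDUFA3 and NDUFA4 lower (4.44%, against 3.17%). In shYAPTAZ against shHIF2A 8 were called (17.8%, against 18.4%): NDUFB6, NDUFB10 and NDUFC1 were higher (6.67%, against 9.71%) and 5 genes lower (11.1%, against 8.72%), NDUFAB1, NDUFAF8, NDUFB9 and NDUFV3 among them. In shYAPTAZ against shJUNs 6 were called (13.3%, against 16.1%): NDUFA3, NDUFB6 and NDUFC1 were higher (6.67%, against 7.87%) and NDUFAB1, NDUFAF8 and NDUFV3 lower (6.67%, against 8.27%). These shares lie near those of all genes. In shYAPTAZ against shHIF2A the NDUFB10 call (adjusted p = 0.0494) was lost in 14 of 20 alternatives and the NDUFB6 call in 9. In shJUNs against shHIF2A the NDUFB1 call was lost in 6 and the NDUFA3 call in 2. The test over all 4 groups at once called 16 of the 45 genes (35.6%), against 38.7% of all genes tested.

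The 7 complex I subunits of the mitochondrial genome were called in both directions. In shHIF2A 3 of 7 were higher (42.9%, against 9.84% of all genes tested). In shJUNs 2 were lower (28.6%, against 8.93%), and in shYAPTAZ 4 were lower (57.1%, against 12.3%). Their summed CPM was 10089.8 to 11111 in parental cells, 11494 to 14433 in shHIF2A, 8187 to 9349 in shJUNs and 7980.5 to 8843 in shYAPTAZ. MT-ND1, MT-ND4 and MT-ND5 were called higher in shHIF2A (log2 changes 0.32, 0.41 and 0.45, adjusted p = 0.0421, 0.0075 and 0.0213). MT-ND2 and MT-ND3 were called lower in shJUNs, and MT-ND1, MT-ND2, MT-ND3 and MT-ND4L lower in shYAPTAZ, where the changes were -0.59, -0.68, -0.61 and -0.53. The nuclear subunits summed above parental cells in these same lines.

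**Figure D5:**
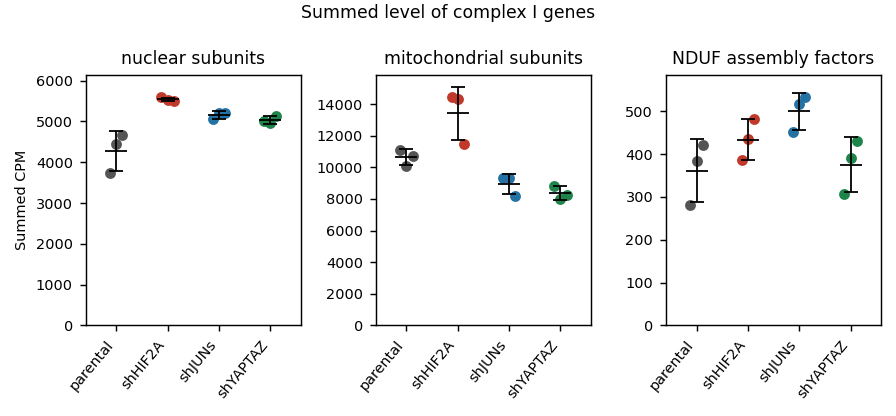
Summed CPM (vertical axes from 0) of the 37 nuclear subunits, the 7 mitochondrially encoded subunits and the 8 NDUF assembly factors in the 4 groups; points are libraries and bars are the mean ± SD of 3. The nuclear sum is 3732 to 4658 in parental cells and at least 4957 in every knockdown library.

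Of the 11 assembly factors without NDUF names, 1 was called higher and 1 lower in shHIF2A (9.09% each, against 9.84% and 8.8% of all genes tested). In shJUNs 2 were higher and 2 lower (18.2% each, against 10.3% and 8.93%). In shYAPTAZ 3 were higher (27.3%, against 13%) and 1 lower (9.09%, against 12.3%). COA1 was lower in all 3 (log2 changes -0.47, -0.71 and -0.57), TIMMDC1, an inner membrane factor, was higher in shHIF2A (0.68), and ACAD9, which works with NDUFAF1, was higher in shJUNs and shYAPTAZ (0.91 and 0.79). Of 7 tested genes known as HIF targets that act on mitochondria, 1 was called higher and 1 lower in shHIF2A (14.3% each, against 9.84% and 8.8%). In shJUNs 2 were lower (28.6%, against 8.93%). In shYAPTAZ 1 was higher (14.3%, against 13%) and 2 lower (28.6%, against 12.3%). MXI1, a repressor that opposes MYC, was lower in all 3 (log2 changes -1.42, -1.76 and -1.59), and the mitochondrial protease gene LONP1 was lower in shJUNs and shYAPTAZ (-0.58 and -1.10). Among 10 regulators of mitochondrial biogenesis, 3 were called higher in shHIF2A (30%, against 9.84%). In shJUNs and shYAPTAZ 1 each was called higher (10% each, against 10.3% and 13%). PPARGC1A, the coactivator PGC-1alpha, was at 0.70, 0.28 and 0.28 CPM in parental cells and at 18.3, 8.42 and 10.9 CPM in shHIF2A, with 5.10, 1.87 and 5.81 CPM in shJUNs. The parental values are at or below the level of 3 counts, so no fold is given.

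The other 14 tested genes (NDUFA1, NDUFA2, NDUFA5, NDUFA9, NDUFA10, NDUFS4, NDUFB4, NDUFB5, NDUFB7, NDUFB11, NDUFC2, NDUFAF4, NDUFAF6 and NDUFAF7) were called in no comparison. Against parental cells their log2 changes ran from -0.67 (NDUFAF7 in shYAPTAZ, adjusted p = 0.174) to 0.69 (NDUFAF4 in shHIF2A, adjusted p = 0.0867). The 63 pseudogenes together held 283 counts against 250282 for the 48 genes (0.113%). NDUFV2P1, the 1 pseudogene that passed the filter, was not called against parental cells. NDUFV2P1 held 105 counts in all, where NDUFV2 held 16. Whether reads of either gene were counted for the other was not tested. The readthrough gene NDUFC2-KCTD14 had 0 counts in every library. Of the called genes, NDUFB8 shares 32.6% of its last 500 exonic bases with a gene of the same strand that had 0 counts, and NDUFC1 and NDUFB2 overlap as given above.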

How the data were processed

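BRB-seq counts were analysed for 12 libraries in 4 groups of 3. The authors deposited unnormalised counts for each gene, and the submitters' processing notes name Trim Galore, STAR and hg38. The counting program, its use of strand, and any collapse of molecular identifiers are not stated in the sources used here. Of 62705 lines, 3 that held 1 broken gene were left out. A table of gene IDs and symbols named 42299 genes, and gene types were those of GENCODE.

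Genes were filtered with filterByExpr by group in edgeR 4.0.16 (R 4.3.3), scaled by TMM, and fitted with 1 robust quasi-likelihood model of group means over all 12 libraries. This left 12301 genes at a common dispersion of 0.0628. P-values were adjusted by Benjamini-Hochberg over all tested genes, and intervals are 95%. Between replicates, chi-squared per degree of freedom was 4.91 to 20.24, above counting error. The script was tested on simulated data.

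Alternatives were RLE size factors, DESeq2 1.42.0, limma-voom (limma 3.58.1), no filter, a mean of at least 10 CPM, only the 2 groups compared, removal of mitochondrial transcripts, a replicate block, and omission of each library. Genes named with values were NDUFA4 and NDUFA4L2, those called in any of 6 comparisons, those with the highest and lowest mean in each role, and those that failed the filter. Listed genes outside the NDUF names were named only if called, except that cell markers were named by their levels. NDUFV2P1, MGARP, BRAF, NDUFB2-AS1, EPAS1 and HIF1A were added beside the results they touch. Results of some single genes are not reported here, and the plots leave them out. The genes, lists and motifs were chosen with earlier results of these data known.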

Additional observations from a re-analysis of the deposited data

How the results depend on the processing

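Over the 20 alternatives, 5 of the 14 calls in shHIF2A against parental cells, 4 of 12 in shJUNs and 4 of 10 in shYAPTAZ held in all, as did 1 of 4, 6 of 8 and 5 of 6 between knockdowns. No called change reversed. With only the 2 groups compared in the fit, 4 genes were called higher in shYAPTAZ (8.89%, against 10.2% of all genes tested). With this setting 7 NDUF genes differed between shJUNs and shHIF2A, for which the share of all genes is not given here. With 1 library left out at a time, genes called higher numbered 7 to 15 in shHIF2A, 5 to 11 in shJUNs and 4 to 11 in shYAPTAZ. As shares these were 15.2% to 32.6%, 10.9% to 23.9% and 8.70% to 23.9%. Of all genes tested, 6.04% to 11.1%, 6.60% to 11.4% and 9.74% to 12.9% were called higher in the same fits. NDUF genes called lower numbered 0 to 0, 0 to 1 and 0 to 1. Between knockdowns the counts were 1 to 5 (shJUNs and shHIF2A), 6 to 11 (shYAPTAZ and shHIF2A) and 5 to 8 (shYAPTAZ and shJUNs), and 14 to 23 genes differed among the 4 groups. Shares of all genes for these last counts are not given here. The lowest counts against parental cells came without parental replicate 1 or 2 for shHIF2A, without shJUNs replicate 2 for shJUNs, and without parental replicate 1 for shYAPTAZ. The NDUFA4L2 log2 change was 0.09 to 0.28 in shHIF2A, -0.04 to 0.17 in shJUNs and 0.22 to 0.40 in shYAPTAZ. It changed sign in shJUNs without parental replicate 2 (-0.031) and without shJUNs replicate 2 (-0.043), with no call either way.

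With the replicate number as a block, 16, 12 and 11 genes were called higher in shHIF2A, shJUNs and shYAPTAZ (35.6%, 26.7% and 24.4%), and the shares of all genes also rose, to 12.3%, 12.7% and 14.5%. Libraries of the same number had correlations of their deviations from -0.01 to 0.22 over 18 pairs, against -0.192 to 0.036 over the 36 pairs of different numbers, and 8 of 12 libraries correlated best with their own number. That hints at a shared replicate effect. Pairs of replicate 1 and pairs of replicate 3 were all positive (0.04 to 0.22), and replicate 1 with replicate 3 was negative throughout. Pairs of replicate 2 ran from -0.01 to 0.013. The share of mitochondrial transcripts also fell from replicate 1 to replicate 3 in all 4 groups. The main fit did not treat the numbers as pairing the samples. Low counts limit some genes: NDUFV2 and NDUFA7 could not be tested, and intervals for NDUFAF1, NDUFAF5 and NDUFA13 are wide. The parts of depth and of shared annotation in these low counts were not tested.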
